A study of Sus scrofa with 15 samples.

Results

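The genes described here encode cytokines, cytokine receptors, interferon-linked proteins, toll-like receptors and immune surface proteins of the sow mammary gland. Members were chosen by name alone: their symbol had to start with the letters of an interleukin, chemokine, tumour necrosis factor (TNF), interferon, toll-like receptor (TLR), interferon regulatory factor, STAT, ISG or CD gene. A member also needed at least 1 CPM, the count of a gene scaled to a common library total, in at least 3 of 15 libraries. The rule gave 31 genes of the 13503 that were tested, out of 25322 listed, and all 31 passed the filter on low counts, 24 of them with at least 1 CPM in all 15 libraries. Names were at hand for 1772 genes, so cytokine genes outside these names were not analysed here, and no chemokine receptor, STAT or interferon gene is among the members.

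Poly(A) RNA of mammary tissue was sequenced in 15 libraries, 3 at each of 5 time points: 14d, 10d, 6d and 2d prepartum and 1d postpartum. The animals were 3 second-parity Danish Landrace x Yorkshire sows, picked for high colostrum yield and biopsied at every time point under general anaesthesia, with an anti-inflammatory drug given after each biopsy. Each sow was on a diet of its own, so the sow and the diet cannot be told apart. The paper places the allotment to the diets later in gestation than its 14d biopsy, so the start of the diets cannot be told apart from time. The 14d biopsy was also the first, so earlier biopsies and drug doses cannot be told apart from time either. The later time points were each set against 14d prepartum, so these comparisons share its 3 libraries and are written -10vs-14 to +1vs-14, and 1d postpartum was set against 2d prepartum as +1vs-2.

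Cytokines are secreted or membrane-bound signals between immune and tissue cells, and they act through surface receptors of the receiving cell. Toll-like receptors sense microbial molecules and switch on NF-kappaB and interferon regulatory factors, and secreted interferon then induces a large set of antiviral genes in its target cells. In the mammary gland such genes come from the epithelium as well as from resident leukocytes, TNFSF11 (RANKL) is known for its part in alveolar growth during pregnancy, and leukocytes enter the gland and its colostrum around birth. In whole tissue, fewer cells of a type and less RNA per cell cannot be told apart.

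The total count per library ranged from 10782343 to 19952918 (median 17726719), with 10782343 to 15744454 at 1d postpartum. The 1d postpartum library with replicate number 37 stood apart: its 10 highest genes held 53.8% of its counts against 16.6% to 35.7% in the other libraries, and its TMM scaling factor was 0.545 against 0.829 to 1.24. It held the lowest of the 3 values at 1d postpartum in 19 of the 31 members, the highest in 7 and the middle in 5. The highest value at 1d postpartum was a median of 2.05 times the lowest over the members, against 1.36 to 1.45 times at the other time points. Calls of members at 1d postpartum, and the counts of the gene lists read beside them, are therefore given with and without it. Marker genes of epithelium were present in every group with summed levels of 1694 to 1770 CPM at 14d prepartum, and no gene of any cell type marker list was at 0 in a whole group. RNA integrity rose from the first to the last time point, so its part in any difference cannot be told apart from time. The 3 values of a time point are printed in the order of the replicate numbers, which by a match of total counts is the same order of the 3 sows at every time point.

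In the main fit, which had no sow term, every call among the members was in a comparison with 1d postpartum. A call needed an adjusted p of 0.05 or less in the comparison and in the overall test of time, which 10 of the 31 members passed against 25.8% of all genes. No member was called in -10vs-14 or -6vs-14, where 0% of all genes were called, nor in -2vs-14, where 2.84% were (1.95% higher and 0.896% lower). An alternative fit with the sow as block called IL13RA2 higher and TNFSF11 lower in -2vs-14, with 8.68% of all genes called. At an unadjusted p of 0.05 or less in edgeR there were 2, 4 and 6 of the 31 members in these 3 comparisons. Over all 13503 genes there were 296, 1189 and 2892. DESeq2 called 1 member, ISG12(A), in -6vs-14, where it called 0.637% of all genes higher. In +1vs-14, 6 members rose and 3 fell, which is 29.0% of the members against 23.7% of all genes (13.3% higher and 10.4% lower). In +1vs-2, 4 rose and 1 fell, which is 16.1% against 15.2% (8.01% higher and 7.24% lower). Both shares are near those of all genes. All 5 members called across parturition were also called in +1vs-14, and 22 members were called in no comparison. With the RNA integrity number as a covariate in edgeR, 0 members were called in +1vs-14, where 0.563% of all genes were, and CD83 and IL17RB alone in +1vs-2, where 7.4% were.

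The members went in both directions. The median log2 fold change of the 31 members from 14d prepartum was 0.05 (10d), 0.01 (6d) and -0.14 (2d) before parturition and 0.22 after it. Across parturition it was 0.38, with 24 of the 31 members above 0. Over all genes the medians were near 0, at -0.01 in -2vs-14 and 0.02 both in +1vs-14 and across parturition. The highest of the 5 means stood at 1d postpartum in 12 members, at 10d prepartum in 11, at 14d in 4, at 6d in 4 and at 2d in 0, and the lowest stood at 2d prepartum in 14. The same counts were not made over all genes, and 22 of the 31 members were called in no comparison, so no pattern is read from them. On total counts without TMM scaling the median of all genes in +1vs-14 was -0.64 and that of the members -0.43, with 1 member called higher and 9 lower. Of all 13503 genes, 530 were called higher and 5158 lower on that scale. The changes below are therefore relative to the bulk of the genes.

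**Figure D1:**
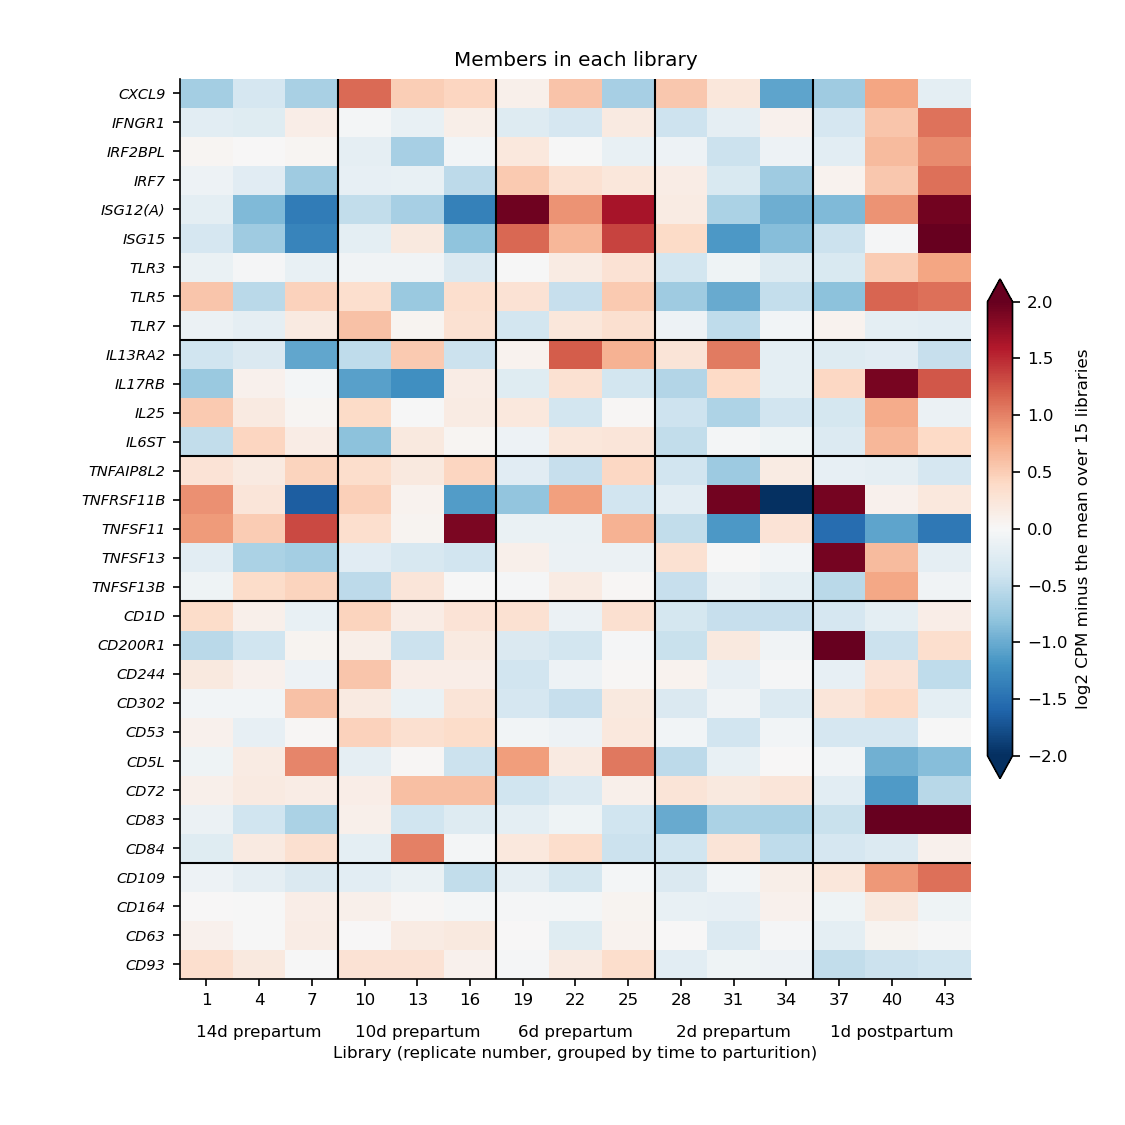
Log2 CPM of the 31 members in the 15 libraries, each minus its mean over the 15 libraries, with genes grouped by role and libraries by time point. CD83 stands out at 1d postpartum in replicates 40 and 43 but not in replicate 37, and ISG12(A) and ISG15 stand out at 6d prepartum in all 3 replicates.

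**Figure D2:**
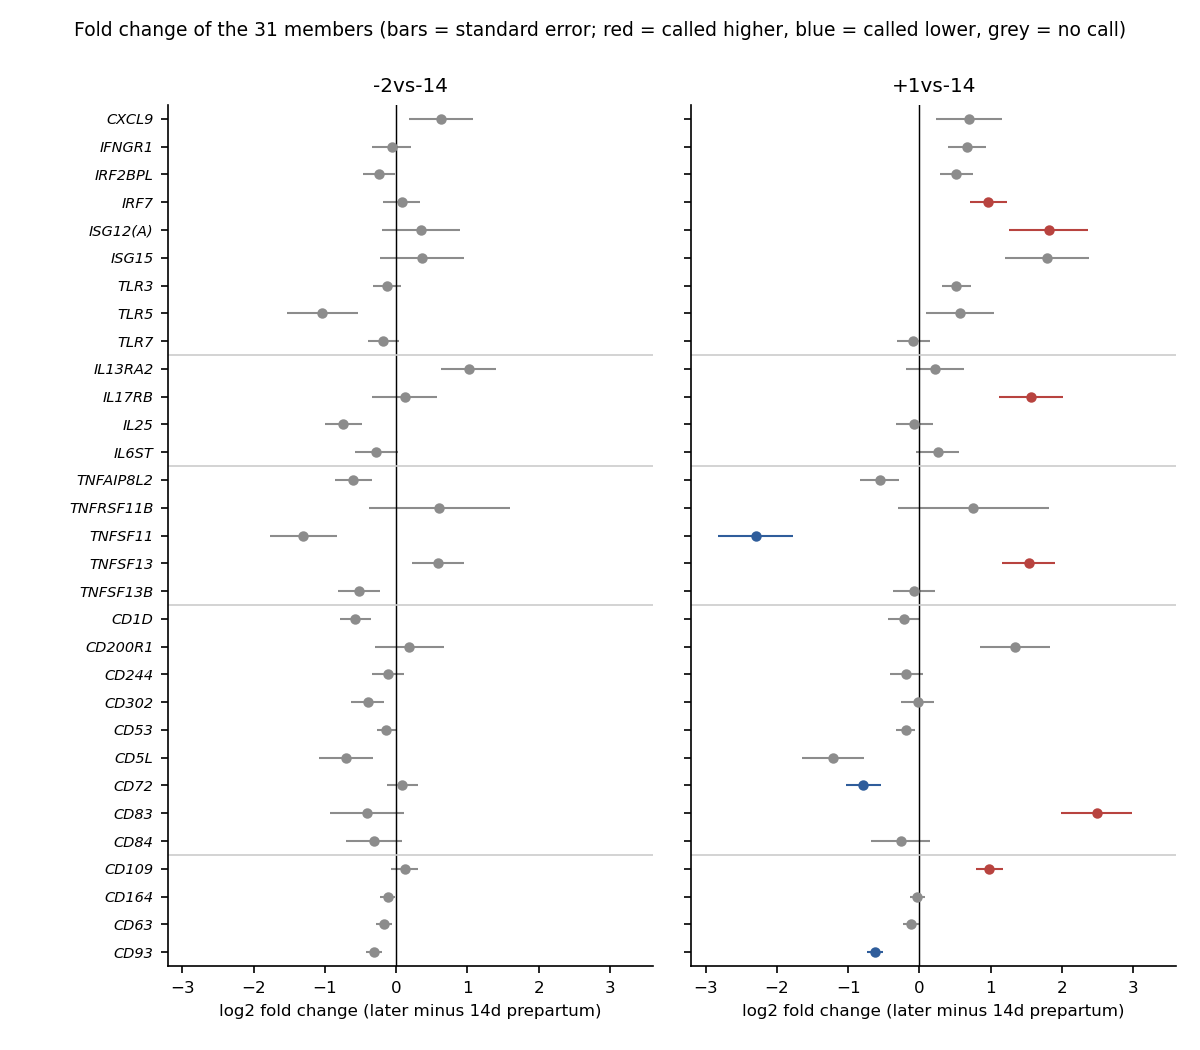
Log2 fold change against 14d prepartum (horizontal axis, bars are the standard error of the fit) of the 31 members at 2d prepartum and at 1d postpartum, coloured by the call. No member is called at 2d prepartum, and 6 are called higher and 3 lower at 1d postpartum, with CD83 farthest to the right and TNFSF11 farthest to the left.

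Levels between genes are compared as mean CPM per kb of exon over the 15 libraries. CD63, a tetraspanin of lysosomes and secreted vesicles, had the largest level with 120.2 CPM per kb, followed by the sialomucin CD164 with 91.6. ISG12(A), an interferon-induced gene, and the cytokine TNFSF13 came next with 64.0 and 53.7, and CD93 had 29.7. CD84 with 0.410, CD5L with 0.369 and TNFRSF11B with 0.344 had the smallest levels.

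Among the 9 genes of pattern recognition and interferon, IRF7 and ISG12(A) rose in +1vs-14 and none fell, which is 22.2% called, near the 23.7% of all genes. Of the 9 log2 fold changes 8 were above 0, where the median of all genes was 0.02. The share of all genes above 0 was not counted. IRF7 is the transcription factor that drives type I interferon genes after toll-like receptor signals (ENSSSCG00000012853, Sscrofa10.2 chr2:299444-302179, plus strand, 8 exons). It measured 21.8, 19.95 and 14.2 CPM at 14d prepartum, 20.8, 21.1 and 16.3 at 10d prepartum, 33.5, 28.8 and 27.2 at 6d prepartum, 25.9, 18.9 and 14.2 at 2d prepartum, and 24.5, 34.02 and 50.2 at 1d postpartum. The 3 libraries of 1d postpartum lay above the 3 of 14d prepartum, and so did those of 6d prepartum. IRF7 was 1.96-fold higher than at 14d prepartum (log2 fold change 0.97, SE 0.26, adjusted p = 0.0116) and 1.85-fold higher than at 2d prepartum (log2 fold change 0.89, SE 0.26, adjusted p = 0.0307), and without replicate 37 the log2 fold changes were 1.16 and 1.08. In -6vs-14 it missed the test (log2 fold change 0.68, SE 0.26, adjusted p = 0.475). The call in +1vs-14 was lost without 14d replicate 7 (adjusted p = 0.0546), without 1d postpartum replicate 43 (0.0684) and without replicate 40, where the overall test missed (0.0531). The call in +1vs-2 was lost without 2d replicate 31 (0.0834) or 34 (0.121) and without 1d postpartum replicate 40 (0.0523) or 43 (0.159).

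ISG12(A), a small mitochondrial protein gene of the interferon alpha-inducible family, had 2 separate high time points (ENSSSCG00000002471, chr7:122215478-122220545, plus strand, 6 exons). It measured 35.7, 22.1 and 15.6 CPM at 14d prepartum, 29.2, 25.7 and 15.9 at 10d prepartum, 158, 76.5 and 129 at 6d prepartum, 46.1, 26.3 and 20.9 at 2d prepartum, and 22.1, 76.8 and 157 at 1d postpartum. All 3 values at 6d prepartum lay above all 3 at 14d prepartum, and at 1d postpartum replicate 37 overlapped 14d prepartum while replicates 40 and 43 lay above it. It rose 3.52-fold in +1vs-14 (log2 fold change 1.82, SE 0.55, adjusted p = 0.0223), and without replicate 37 the change was 4.73-fold (log2 fold change 2.24, adjusted p = 0.00161). The call was lost without 14d replicate 4 (adjusted p = 0.0726) or 7 (0.0867) and without 1d postpartum replicate 43 (log2 fold change 1.02, adjusted p = 0.150). In -6vs-14 it was 4.96-fold higher in the mean and higher in 3 of 3 sows, but the adjusted p was 0.232 (log2 fold change 2.31, SE 0.56). That difference was called by DESeq2 (2.30, adjusted p = 0.00405; 0.637% of all genes called higher) and by edgeR without 1d postpartum replicate 37 (2.31, adjusted p = 0.0460; 0.185%), which is in neither arm of the comparison.

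ISG15 encodes a ubiquitin-like protein that is attached to other proteins after interferon (ENSSSCG00000027982, scaffold GL895967.2). It measured 5.13, 3.90 and 2.52 CPM at 14d prepartum, 5.64, 7.45 and 3.68 at 10d prepartum, 14.6, 10.3 and 16.8 at 6d prepartum, 8.45, 2.84 and 3.54 at 2d prepartum, and 4.77, 6.35 and 27.8 at 1d postpartum. Its pattern was like that of ISG12(A), with all 3 libraries of 6d prepartum above 14d prepartum and a single high library, replicate 43, at 1d postpartum. In -6vs-14 it was 3.601-fold higher without a call (log2 fold change 1.85, SE 0.58, adjusted p = 0.349). In +1vs-14 of the main fit the comparison passed (log2 fold change 1.79, SE 0.59, adjusted p = 0.0313) but the overall test did not (adjusted p = 0.0566), and without replicate 37 it was called at 4.41-fold higher (log2 fold change 2.14, adjusted p = 0.00945). DESeq2 and the limma-voom fit with a random sow effect called ISG15 higher in +1vs-14 with all libraries. Of all 13503 genes, they called 2263 and 2102 higher there.

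The interferon gamma receptor chain IFNGR1 measured 23.3, 22.8 and 29.5 CPM at 14d prepartum, 26.2, 24.4 and 29.4 at 10d prepartum, 22.5, 21.3 and 30.6 at 6d prepartum, 20.3, 23.8 and 28.5 at 2d prepartum, and 21.4, 39.6 and 57.6 at 1d postpartum. Replicates 40 and 43 of 1d postpartum lay above every other library, and replicate 37 lay below all 3 values of 14d prepartum. The difference in +1vs-14 missed the test (log2 fold change 0.66, SE 0.27, adjusted p = 0.0734) and passed with the sow as block (0.61, adjusted p = 0.0220, with 30.1% of all genes called) and without replicate 37 (0.93, adjusted p = 0.00313). In +1vs-2 the log2 fold change was 0.73 (adjusted p = 0.0812), and the block called it (0.68, adjusted p = 0.0218, with 20.1% of all genes called). IRF2BPL, named for its likeness to a partner of interferon regulatory factor 2, measured 46.97, 46.2 and 46.96 CPM at 14d prepartum, 40.4, 28.9 and 43.9 at 10d prepartum, 53.1, 45.6 and 41.2 at 6d prepartum, 42.4, 33.9 and 42.4 at 2d prepartum, and 39.3, 71.2 and 88.3 at 1d postpartum. It too was high in replicates 40 and 43 alone, missed the test in +1vs-14 (log2 fold change 0.51, SE 0.23, adjusted p = 0.104) and was called without replicate 37 (0.76, adjusted p = 0.00389).

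Among the toll-like receptors, which were singled out with their values known, TLR3 senses double-stranded RNA and TLR5 bacterial flagellin. TLR3 measured 19.8, 21.3 and 19.5 CPM at 14d prepartum, 20.6, 20.6 and 17.8 at 10d prepartum, 21.6, 24.4 and 26.6 at 6d prepartum, 16.8, 20.5 and 18.2 at 2d prepartum, and 17.5, 30.9 and 37.4 at 1d postpartum. TLR5 measured 2.38, 1.05 and 2.23 CPM at 14d prepartum, 2.03, 0.904 and 2.03 at 10d prepartum, 1.95, 1.12 and 2.32 at 6d prepartum, 0.926, 0.726 and 1.11 at 2d prepartum, and 0.851, 3.67 and 3.51 at 1d postpartum. Both had their 2 highest values in replicates 40 and 43 and a value of replicate 37 below all 14d prepartum libraries. Neither was called in the main fit: in +1vs-2 TLR3 had a log2 fold change of 0.65 (SE 0.20, adjusted p = 0.0414) and TLR5 of 1.60 (SE 0.51, adjusted p = 0.0444), but the overall test of time missed for both. With all libraries, DESeq2 and the limma-voom fit with a random sow effect called TLR3 higher in both +1vs-14 and +1vs-2. Of all 13503 genes, DESeq2 called 2263 and 1429 higher in these comparisons, and the limma-voom fit 2102 and 1294. Without replicate 37 both were called in +1vs-2, TLR5 with a log2 fold change of 1.95 (adjusted p = 0.00582), and TLR3 was also called in +1vs-14 (0.74, adjusted p = 0.000690). TLR7, the receptor of single-stranded RNA, stayed between 3.03 and 6.58 CPM in all libraries and was not called. CXCL9, a chemokine that interferon gamma induces and that attracts T cells, measured 1.74, 2.26 and 1.79 CPM at 14d prepartum, 6.40, 4.10 and 3.92 at 10d prepartum, 3.09, 4.32 and 1.77 at 6d prepartum, 4.22, 3.39 and 1.33 at 2d prepartum, and 1.70, 5.06 and 2.49 at 1d postpartum. Its 3 values at 10d prepartum lay above the 3 at 14d prepartum, with no call (log2 fold change 1.31, SE 0.44, adjusted p = 0.9998).

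**Figure D3:**
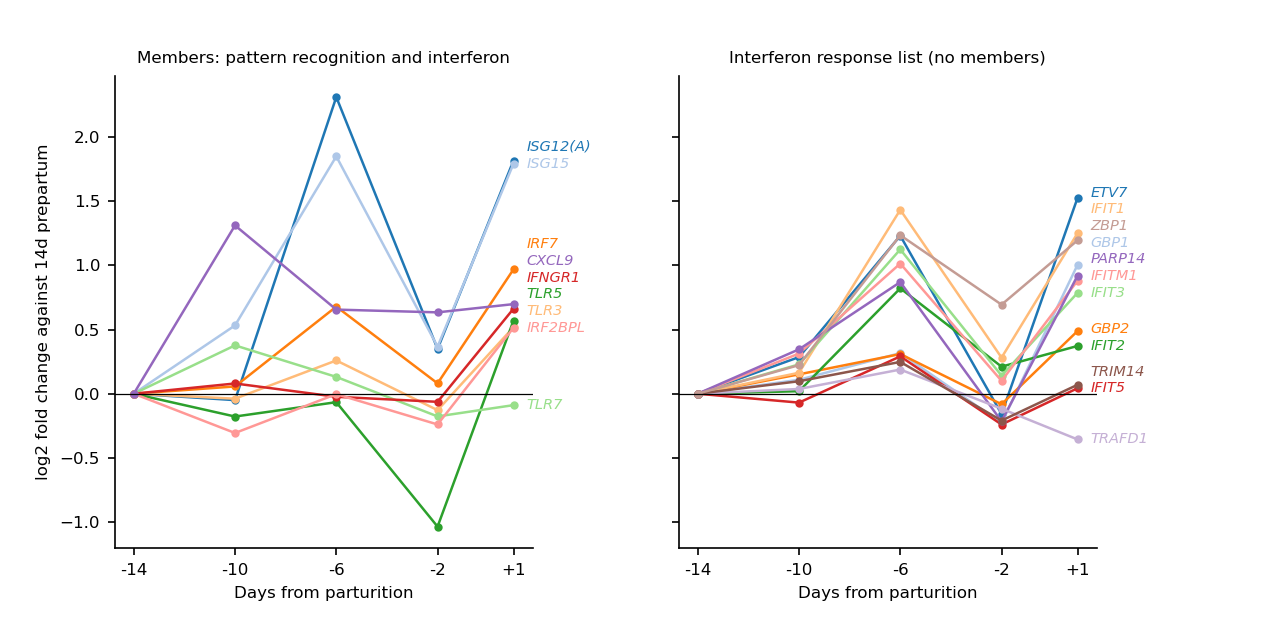
Log2 fold change against 14d prepartum (vertical axis) by day relative to parturition (horizontal axis) for the 9 members of pattern recognition and interferon (left) and 12 other genes of the interferon response (right), without error bars. ISG12(A) and ISG15 on the left and all 12 genes on the right lie above 0 at 6d prepartum, and 8 of 9 and 11 of 12 do at 1d postpartum.

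Other genes of the interferon response, a list of 12, were read beside these members. In -6vs-14 each of the 12 lay above 0 on the log2 scale (median 0.85, with that of all genes near 0). An unadjusted p of 0.05 or less in edgeR was seen in 7 of them and in 1189 of all 13503 genes. By edgeR 0 of the 12 were called (smallest adjusted p 0.0719, IFIT1), and 3 were with the sow as a block, against 0.467% of all genes. The summed level of the list was 268 to 281 CPM at 6d prepartum against 174 to 210 at 14d and 179 to 189 at 2d prepartum. In +1vs-14, 7 of the 12 rose and none fell (58.3%, median 0.83, against 23.7% of all genes), and in +1vs-2 4 rose (15.2% of all genes called). Without replicate 37, 7 rose in +1vs-14 and 6 in +1vs-2, where 28.5% and 22.3% of all genes were called. The summed level at 1d postpartum was 210 to 307 CPM. The largest of the called changes in +1vs-14 were those of ETV7, a repressor-type ETS factor (1.52, SE 0.38, adjusted p = 0.00785), IFIT1, which binds foreign RNA (1.25, SE 0.24, adjusted p = 0.00178), the nucleic acid sensor ZBP1 (1.19, SE 0.24, adjusted p = 0.00202) and the GTPase GBP1 (1.00, SE 0.17, adjusted p = 0.000692). IFIT1 and IFIT3 are read here under names that differ between annotations, so the pair is uncertain.

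Of the 4 interleukin and receptor genes, IL17RB was the only member called, and it rose at 1d postpartum. IL17RB is the receptor chain for IL25 (ENSSSCG00000011457, chr13:39018890-39033919, plus strand, 11 exons). It measured 1.24, 2.26 and 2.09 CPM at 14d prepartum, 0.947, 0.851 and 2.37 at 10d prepartum, 1.79, 2.66 and 1.63 at 6d prepartum, 1.39, 2.84 and 1.85 at 2d prepartum, and 2.89, 8.23 and 5.19 at 1d postpartum. The 3 libraries of 1d postpartum lay above those of 14d and of 2d prepartum, with replicate 37 closest to them. It was 2.96-fold higher in +1vs-14 (log2 fold change 1.56, SE 0.45, adjusted p = 0.0164) and 2.72-fold higher in +1vs-2 (log2 fold change 1.44, SE 0.45, adjusted p = 0.0415), and without replicate 37 the log2 fold changes were 1.82 and 1.71. The first call was lost without 14d replicate 1 (adjusted p = 0.0632), 1d postpartum replicate 40 (0.0832) or, through the overall test (0.0693), replicate 43. The second was lost without 2d replicate 28 (0.143) or 34 (0.118) or 1d postpartum replicate 40 (0.175) or 43 (0.0764).

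IL13RA2, a decoy receptor that binds IL-13 without passing on a signal, was high before birth and is shown with its values known. It measured 3.53, 3.81 and 2.23 CPM at 14d prepartum, 3.25, 6.81 and 3.44 at 10d prepartum, 4.93, 11.03 and 7.69 at 6d prepartum, 5.61, 9.75 and 4.06 at 2d prepartum, and 3.92, 3.97 and 3.36 at 1d postpartum. The 3 values of 6d and of 2d prepartum lay above those of 14d prepartum, and at 1d postpartum they overlapped them again. It was not called in -6vs-14 (log2 fold change 1.30, SE 0.38, adjusted p = 0.306) or in -2vs-14 (log2 fold change 1.02, SE 0.38, adjusted p = 0.149). A fit with the sow as block called it in -2vs-14 (0.97, adjusted p = 0.0345, with 8.68% of all genes called) and missed in -6vs-14 (1.28, adjusted p = 0.0502). The ligand IL25 itself stayed between 3.69 and 9.62 CPM and the shared receptor chain IL6ST (gp130) between 4.42 and 12.5 CPM, with no call in any comparison.

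The 5 TNF superfamily genes went both ways. TNFSF11, the ligand RANKL, fell to its lowest mean at 1d postpartum (ENSSSCG00000009429, chr11:25118421-25154869, minus strand, 5 exons). It measured 9.26, 7.29 and 12.9 CPM at 14d prepartum, 6.45, 5.32 and 19.03 at 10d prepartum, 4.66, 4.63 and 8.28 at 6d prepartum, 3.59, 2.24 and 6.20 at 2d prepartum, and 1.70, 2.38 and 1.83 at 1d postpartum. All values of 2d prepartum and 1d postpartum lay below all 3 of 14d prepartum. It was 4.92-fold lower in +1vs-14 (log2 fold change -2.30, SE 0.53, adjusted p = 0.00498), which held without replicate 37 (-2.24) and was lost without replicate 43, where the overall test missed (adjusted p = 0.0565). In -2vs-14 it was 2.46-fold lower with no call (log2 fold change -1.30, SE 0.47, adjusted p = 0.139), and the fit with the sow as block called it (-1.35, SE 0.29, adjusted p = 0.0152).

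TNFSF13, the ligand APRIL, supports plasma cells and the switch to IgA (ENSSSCG00000026872, scaffold GL896258.1:1742-3865, plus strand, 10 exons). It measured 29.6, 22.1 and 21.4 CPM at 14d prepartum, 29.5, 27.5 and 26.5 at 10d prepartum, 36.9, 31.6 and 31.6 at 6d prepartum, 42.4, 34.1 and 33.2 at 2d prepartum, and 129.7, 53.2 and 30.5 at 1d postpartum. All 3 libraries of 1d postpartum lay above 14d prepartum, but here replicate 37 was the highest, more than 2 times either of the others. Replicate 43 lay below all 3 values of 2d prepartum. In +1vs-2 the main fit made no call (log2 fold change 0.94, adjusted p = 0.0894, and 0.18, adjusted p = 0.583, without replicate 37). DESeq2 called it higher there, with 1429 of all 13503 genes called higher. TNFSF13 rose 2.89-fold in +1vs-14 (log2 fold change 1.53, SE 0.37, adjusted p = 0.00626), and without replicate 37 the change was 1.69-fold (log2 fold change 0.76, SE 0.21, adjusted p = 0.0121). The call was lost, through the overall test, without 14d replicate 4 (adjusted p = 0.0592) or 7 (0.0588). TNFSF13B, the ligand BAFF of B cells, stayed between 2.72 and 6.94 CPM, and TNFAIP8L2, a brake on immune activation, between 1.94 and 4.51 CPM. TNFRSF11B, osteoprotegerin, which binds and blocks RANKL, reached 2.42 CPM at most and had 0 counts in 2d prepartum replicate 34, where 3 counts are 0.221 CPM. Its highest value at 14d prepartum was 11.8 times the lowest, and it was called in no comparison.

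**Figure D4:**
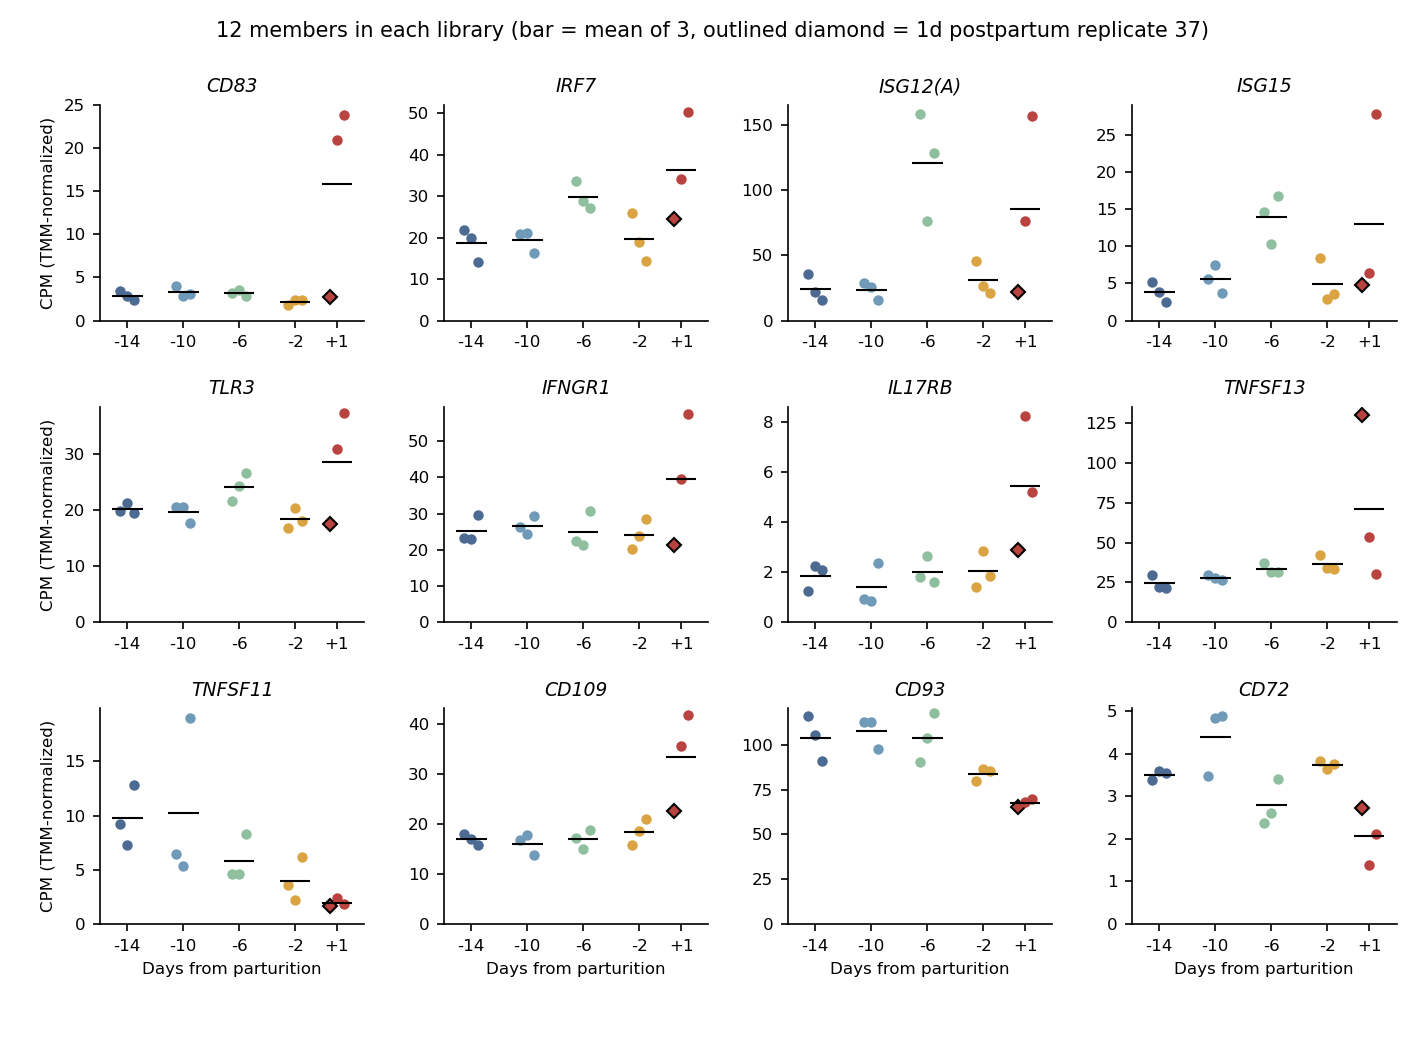
CPM in each library (points) of 12 members at the 5 time points, with the bar at the mean of 3 libraries and replicate 37 of 1d postpartum drawn as an outlined diamond. CD83 is at 20.9 and 23.9 CPM in replicates 40 and 43 and at 2.72 in replicate 37, TNFSF13 is highest in replicate 37, and TNFSF11 and CD93 are low in all 3.

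Of the 9 leukocyte surface genes, CD83 rose and CD72 fell after parturition (22.2% called in +1vs-14, near the 23.7% of all genes). CD83 marks mature dendritic cells and activated lymphocytes (ENSSSCG00000021576, chr7:10634535-10817827, plus strand, 7 exons, with another gene of that strand inside an intron). It measured 3.44, 2.81 and 2.38 CPM at 14d prepartum, 4.01, 2.82 and 3.10 at 10d prepartum, 3.25, 3.52 and 2.81 at 6d prepartum, 1.79, 2.36 and 2.36 at 2d prepartum, and 2.72, 20.9 and 23.9 at 1d postpartum. Replicates 40 and 43 of 1d postpartum were far above every other library, whereas replicate 37 lay among the values of 14d prepartum. CD83 had the largest increase of the set, 5.62-fold higher in +1vs-14 (log2 fold change 2.49, SE 0.50, adjusted p = 0.0021) and 7.45-fold higher in +1vs-2 (log2 fold change 2.90, SE 0.52, adjusted p = 0.0021), where the libraries did not overlap. Without replicate 37 it was 7.69-fold higher in +1vs-14 (log2 fold change 2.94, SE 0.20, adjusted p = 1.1e-06) and 10.24-fold higher in +1vs-2. Neither call was lost when any of the 6 libraries compared was left out.

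CD72, an inhibitory co-receptor of B cells, was lowest after birth (ENSSSCG00000005311, chr1:264070941-264078590, minus strand, 9 exons). It measured 3.39, 3.61 and 3.54 CPM at 14d prepartum, 3.47, 4.84 and 4.89 at 10d prepartum, 2.38, 2.61 and 3.40 at 6d prepartum, 3.82, 3.63 and 3.76 at 2d prepartum, and 2.72, 1.39 and 2.12 at 1d postpartum. The 3 libraries of 1d postpartum lay below those of 14d and of 2d prepartum. It was 1.73-fold lower in +1vs-14 (log2 fold change -0.79, SE 0.24, adjusted p = 0.0231) and 1.84-fold lower in +1vs-2 (log2 fold change -0.88, SE 0.24, adjusted p = 0.0243), or -0.997 and -1.08 on the log2 scale without replicate 37. The first call was lost without 14d replicate 4 (adjusted p = 0.0531) or 1d postpartum replicate 40 (0.0956), and through the overall test without 43 (0.0607). The second was lost without 2d replicate 28 (0.0637) or 34 (0.0622) or 1d postpartum replicate 40 (0.0942) or 43 (0.0567).

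CD53, a tetraspanin of leukocytes, passed the overall test of time (adjusted p = 0.0237) and no single comparison. It measured 17.9, 15.1 and 17.2 CPM at 14d prepartum, 23.3, 21.2 and 21.9 at 10d prepartum, 16.4, 15.7 and 19.6 at 6d prepartum, 16.3, 13.01 and 16.3 at 2d prepartum, and 13.4, 13.4 and 16.8 at 1d postpartum. Its values at 10d prepartum were the 3 highest of all 15, without a call against 14d prepartum (log2 fold change 0.40, SE 0.13, adjusted p = 0.9998). CD5L, a protein that macrophages secrete, and CD200R1, an inhibitory receptor of myeloid cells, are given with their values known. CD5L measured 0.825, 1.01 and 1.84 CPM at 14d prepartum, 0.766, 0.904 and 0.629 at 10d prepartum, 1.68, 1.01 and 1.97 at 6d prepartum, 0.579, 0.787 and 0.886 at 2d prepartum, and 0.851, 0.397 and 0.439 at 1d postpartum. Its comparison in +1vs-14 passed (log2 fold change -1.21, SE 0.44, adjusted p = 0.0466) while the overall test missed (adjusted p = 0.0505), and it was called lower with the sow as a block (-1.23, adjusted p = 0.0402) and without replicate 37. CD200R1 was at 14.1 CPM in replicate 37 and between 2.11 and 3.95 CPM in the 14 other libraries. Its log2 fold change in +1vs-14 was 1.34 (SE 0.49, adjusted p = 0.0515) with replicate 37 and 0.28 without it, and without replicate 40 it was called (1.76, adjusted p = 0.00835), so its value rests on a single library. Its exons overlap another gene on the same strand, which makes its count uncertain.

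The 4 remaining leukocyte genes were not called. CD1D, which presents lipids to T cells, stayed between 1.69 and 3.29 CPM, and its ID carries the name of another CD1 gene in RefSeq, so it may hold more than 1 gene of that family. The lectin CD302 stayed between 6.66 and 13.8 CPM. CD244 and CD84, both receptors of the SLAM family, lay between 1.97 and 4.24 CPM and between 0.738 and 2.34 CPM, respectively.

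Of the 4 CD genes of wider expression, CD109 rose and CD93 fell in +1vs-14, with no overlap between the libraries of the 2 time points in either. CD109 is an anchored surface protein that binds TGF-beta (ENSSSCG00000004485, chr1:103132170-103292068, minus strand, 33 exons). It measured 18.1, 17.02 and 15.8 CPM at 14d prepartum, 16.7, 17.7 and 13.7 at 10d prepartum, 17.2, 15.1 and 18.9 at 6d prepartum, 15.7, 18.6 and 21.04 at 2d prepartum, and 22.6, 35.5 and 41.7 at 1d postpartum. It lay between 13.7 and 21.0 CPM in gestation, and the 3 values of 1d postpartum lay above all 12 others. It was 1.97-fold higher in +1vs-14 (log2 fold change 0.98, SE 0.19, adjusted p = 0.00177) and 1.82-fold higher in +1vs-2 (log2 fold change 0.86, SE 0.19, adjusted p = 0.00765), and both calls held with any of the 6 libraries compared left out (1.17 and 1.06 without replicate 37).

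CD93 is a surface glycoprotein of endothelial and myeloid cells (ENSSSCG00000007116, chr17:34381626-34384902, plus strand, 2 exons). It measured 116, 105 and 90.9 CPM at 14d prepartum, 113, 113 and 97.6 at 10d prepartum, 90.3, 104 and 118 at 6d prepartum, 79.7, 86.7 and 85.3 at 2d prepartum, and 65.02, 68.04 and 69.7 at 1d postpartum. The 3 values of 1d postpartum were the lowest of all 15, and those of 2d prepartum also lay below 14d prepartum. It was 1.54-fold lower in +1vs-14 (log2 fold change -0.62, SE 0.11, adjusted p = 0.00124), the smallest adjusted p of the set, and the call held with any of the 6 libraries compared left out (-0.61 without replicate 37). In -2vs-14 it missed the test (log2 fold change -0.31, SE 0.11, adjusted p = 0.141). The abundant CD164 measured 324, 319 and 352 CPM at 14d prepartum, 345, 329 and 314 at 10d prepartum, 318, 314 and 335 at 6d prepartum, 291, 286 and 340.3 at 2d prepartum, and 303, 368 and 302 at 1d postpartum. CD63 measured 258, 242 and 269 CPM at 14d prepartum, 243, 272 and 277 at 10d prepartum, 244, 206 and 255 at 6d prepartum, 245, 200.4 and 238 at 2d prepartum, and 212, 253 and 242 at 1d postpartum. Both overlapped between all time points and were not called.

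Without 1d postpartum replicate 37, 10 members were called higher in +1vs-14 and 4 lower, against 28.5% of all genes, in place of 6 and 3. The 4 added increases were IFNGR1, IRF2BPL, ISG15 and TLR3, the added decrease was CD5L, and none of the 9 calls was lost. In +1vs-2 there were 10 higher and 1 lower in place of 4 and 1, against 22.3% of all genes. Of the 6 members called higher with all libraries, replicate 37 had the lowest of the 3 values at 1d postpartum in 5, the exception being TNFSF13. Left out in turn, 1d postpartum replicate 43 or 14d replicate 7 brought the increases in +1vs-14 down to 3, and 43 brought the decreases down to 1. Of all 13503 genes, 1449 and 1459 were then called higher, and 1126 were lower without 43.

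**Figure D5:**
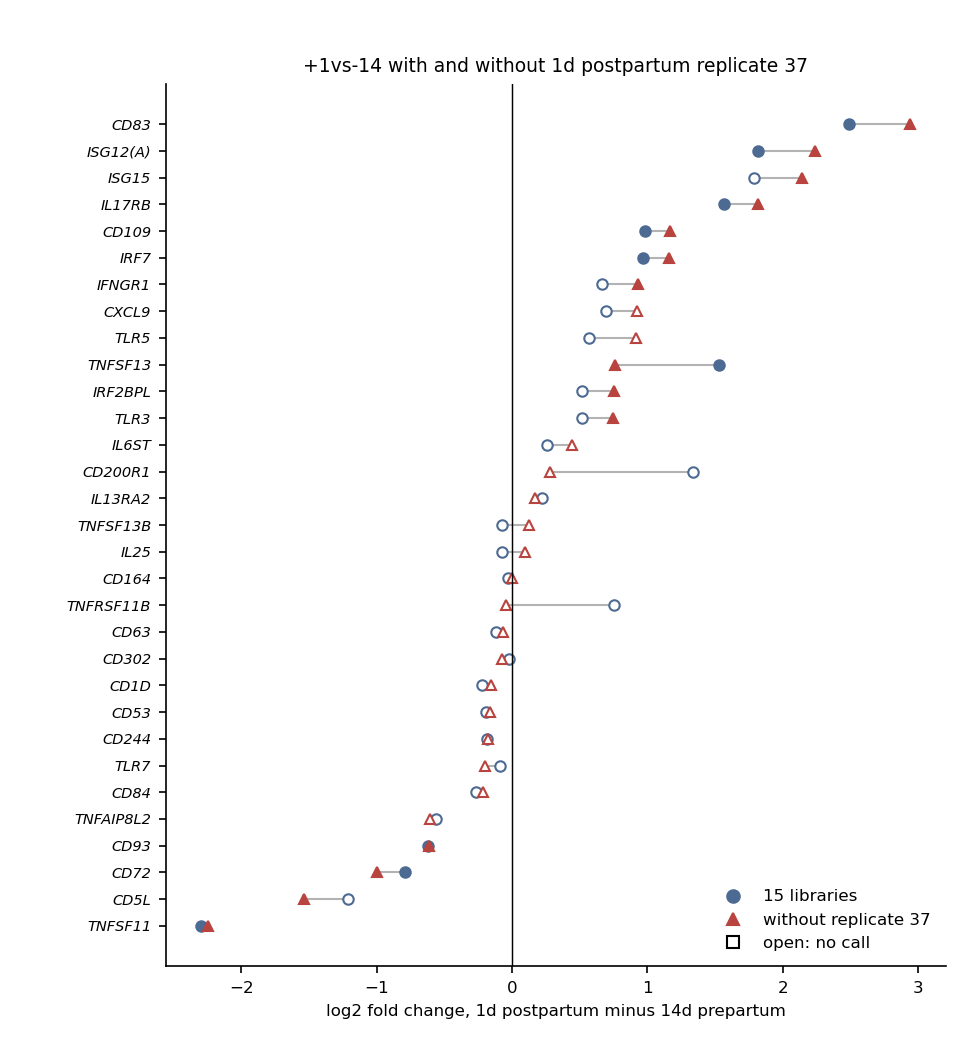
Log2 fold change of the 31 members in +1vs-14 with all 15 libraries and without 1d postpartum replicate 37, with open symbols where there is no call. ISG15, IFNGR1, IRF2BPL and TLR3 move to the right and become filled without it, and TNFSF13 and CD200R1 move to the left.

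Signalling genes of the same pathways were read from fixed lists. Of 15 genes of toll-like receptor, TNF and IL-17 signalling, 5 rose and none fell in +1vs-14 (33.3%, median 0.46, against 23.7% of all genes), 5 rose in +1vs-2 (33.3% against 15.2%), and RIPK3 alone rose in -2vs-14 (6.67% against 2.84%). With the sow as block 7, 4 and 3 rose in these comparisons, against 30.1%, 20.1% and 8.68% of all genes, and without replicate 37, 6 rose in +1vs-14 and 5 in +1vs-2. Without that library 28.5% and 22.3% of all genes were called. LY96, the co-receptor of the endotoxin receptor, rose by 2.59 on the log2 scale (SE 0.48, adjusted p = 0.00123) with 5.79 CPM in replicate 37 against 46.6 and 37.7 in the other two. RIPK3, a kinase of regulated cell death, rose by 1.80 (SE 0.23, adjusted p = 0.00011), and TRAF3IP2, the adaptor of IL-17 receptors, by 1.48 (SE 0.12, adjusted p = 8e-06). NFKBIE, an inhibitor of NF-kappaB, rose by 0.81 (adjusted p = 0.0193) and was not called with the block. Of 5 genes tied to gp130 and interferon feedback, 2 rose in +1vs-14 and in +1vs-2, and 3 and 2 did with the sow as block and without replicate 37 alike. The 2 were the transcription factors CEBPD (3.48 in +1vs-14, SE 0.32, adjusted p = 1.1e-05) and FOS (2.73, SE 0.47, adjusted p = 0.000791). SOCS2 of that list carries another name in RefSeq and is uncertain.

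Leukocyte markers were read beside the rise of CD83 and the interferon genes in +1vs-14. In the main fit, calls there were made for 1 of 12 lymphocyte, 2 of 12 myeloid and 2 of 8 shared markers. Of all genes 23.7% were called, 13.3% higher and 10.4% lower. Whether the lists differed from all genes was not tested. In +1vs-14, 0 of 12 lymphocyte markers rose and LY9 fell (-0.71, adjusted p = 0.0204), and their summed level was 31.8 to 35.7 CPM against 33.8 to 40.8 at 14d prepartum. Of 12 myeloid markers S100A9 rose (5.43, adjusted p = 0.000211) and NCF4 fell (-1.27, adjusted p = 0.000724), with a summed level of 114 to 153 CPM against 125 to 146. S100A9 was at 0.046, 0.084 and 0.291 CPM at 14d prepartum and at 2.55, 10.1 and 5.63 at 1d postpartum. Its level at 14d prepartum was near 0, so the size of its rise is uncertain. Of 8 genes shared by leukocytes NFATC2 rose (1.01) and ARHGDIB fell (-0.51), with 224 to 275 CPM against 273 to 312. At 10d prepartum, where CD53 and CXCL9 were high, the lymphocyte sum was 45.8 to 55.9 CPM and the myeloid sum 154 to 172, both above 14d prepartum in all 3 libraries. The sum of the list shared by leukocytes, 290 to 306 CPM, overlapped that of 14d prepartum. CTSS alone held 99.8 to 113 CPM of the myeloid sum at 10d prepartum. No marker of these lists was called in -10vs-14, where 0% of all genes were. Without replicate 37, 0 lymphocyte, 2 myeloid and 1 shared leukocyte markers rose in +1vs-14 and 1 of each list fell, with 28.5% of all genes called. With the sow as block 1 lymphocyte marker, SLAMF7, also rose and 2 myeloid markers fell, with 30.1% of all genes called. The part of cell numbers in these values was not tested.

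Epithelial markers were uneven at 1d postpartum. Of 10 epithelial markers, 3 rose and 3 fell in +1vs-14 (60.0% called, against 23.7% of all genes). Their summed level ranged from 900 CPM in replicate 37 to 3124. LCN2 (a rise of 5.97) was at 16.5 CPM in replicate 37 and at 1705 and 1205 in replicates 40 and 43. That 1 gene held a large part of the sum in replicates 40 and 43. CD83, IFNGR1, TLR3 and TLR5 were high in the same 2 libraries. Of 9 endothelial markers 2 rose and 1 fell, PLXND1 (-0.78), with a sum of 235 to 292 CPM against 256 to 305, beside the fall of CD93. Of 10 fibroblast and matrix markers 1 rose and 1 fell (sum 1940 to 3747 CPM against 3722 to 6920), and of 4 adipocyte markers 1 rose (sum 51.2 to 84.0 CPM against 42.0 to 46.7). With the sow as block (30.1% of all genes called) 2 fibroblast and matrix markers rose and 4 fell, and the counts of the other 3 lists stayed as they were. Without replicate 37 (28.5% of all genes called), 4 epithelial markers rose and 3 fell, 1 endothelial marker rose and 2 fell, and the other 2 lists kept their counts. Their part in the members' changes was not tested.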

How the data were processed

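Poly(A) RNA of sow mammary biopsies was read as single 100-nt reads from stranded libraries. The authors trimmed reads with Trimmomatic 0.33, aligned them with STAR 2.5.1b to Sscrofa10.2 and counted them on exons with featureCounts of Subread 1.5.0, reverse-stranded. The deposited values are raw read counts per gene, without normalization. The file headers name Ensembl release 86, and the study's Methods name RefSeq. Time points came from the labels. Members and lists were chosen with earlier results of these data known. Names came from a part of the study's gene table (1991 IDs, 1772 genes named), which matched RefSeq symbols for 20 of the 21 members found there, and 1 matching symbol is not reported here. Members printed in every library were those called in any comparison and the 6 others with the largest level per length, with a few more that are named as such.

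The main test was that of edgeR 4.0.16 in R 4.3.3 (TMM, glmQLFit and glmQLFTest, all 15 libraries, time as factor), after a filter of at least 1 CPM in at least 3 libraries. Adjusted p-values are Benjamini-Hochberg over all 13503 genes, and a call needed 0.05 or less in the comparison and in the overall test of time. The standard error (SE) is the absolute log2 fold change divided by the square root of F. A gene with 0 counts was given the limit of 3 counts. CPM are TMM-scaled, with a prior count of 2 on the log2 scale. Alternatives were DESeq2 1.42.0, limma 3.58.1 (voom, with and without the sow as a random effect, consensus correlation 0.148), other scalings, filters and depths, the RNA integrity number as a covariate, and fits that left out a single library. The fit was tested on simulated counts.

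The sow is not in the labels. It was joined by the exact match of total counts with the reads on exons in the study's alignment summary, and used in alternatives alone. As a check of the pairing, the deviations of libraries from the time point means correlated with a mean r of 0.396 (lowest 0.103) over the 30 pairs of the same sow and of -0.198 over the 60 pairs of different sows. Replicates are different animals, and any 2 libraries of a time point had different counts in at least 16072 genes. Depth limits the precision of genes near 1 CPM, and limits and tests rest on counting error and 3 animals. No promoter or protein sequence was used here.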

Additional observations from a re-analysis of the deposited data

How the results depend on the processing

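With 3 sows per time point, RNA integrity that rose with time and a different diet for each sow, the calls rest on few libraries, and a missed test says little on genes near 1 CPM. RLE scaling, no filter on CPM, and leaving out the 10 highest genes of each library gave the same called members in every comparison. Counts that moved by more than 1.5 times are given below, with those of the sow models for comparison, and the cause was not tested unless the setting itself uses fewer samples or counts.

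On total counts without TMM, 2 members fell in -2vs-14 in place of 0, 1 rose and 9 fell in +1vs-14 in place of 6 and 3, and 1 rose in +1vs-2 in place of 4. Of all 13503 genes, 1268 fell in -2vs-14, 530 rose and 5158 fell in +1vs-14, and 382 rose in +1vs-2 under that setting. DESeq2 called 1 member higher in -6vs-14 and 8 in +1vs-2, against 86 and 1429 of all 13503 genes. With the sow as replicate block, 1 was higher and 1 lower in -2vs-14 (8.68% of all genes called). The counts in +1vs-14 (7 higher, 4 lower, 30.1% of all genes called) and +1vs-2 (5 and 1, 20.1%) stayed within 1.5 times. The block changed no call other than those of IL13RA2, TNFSF11, IFNGR1 and CD5L. With the RNA integrity number as a covariate, 0 were higher and 0 lower in +1vs-14, 2 higher and 0 lower in +1vs-2, and 3 passed the overall test of time in place of 10. Of all 13503 genes, 76 were called in +1vs-14 and 999 in +1vs-2 with that covariate, and 1032 passed the overall test. In fits of the 6 libraries of a comparison alone, 3 members were higher in +1vs-14, and 0 higher and 0 lower in +1vs-2. Of all 13503 genes, 1199 were higher in +1vs-14, and 238 were higher and 178 lower in +1vs-2 in these fits. Without the overall test as a condition, 7 members were higher in +1vs-2, against 1297 of all 13503 genes. Counts thinned to the smallest library left 0 members lower in +1vs-2, against 930 of all 13503 genes. In the limma-voom fit with a random sow effect, 8 members were higher and 3 lower in +1vs-14, within 1.5 times, against 2102 and 1828 of all 13503 genes.

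With each library left out in turn, the members called in +1vs-14 ranged from 3 (without 14d prepartum replicate 7 or 1d postpartum replicate 43) to 10 (without 37) higher and from 1 (without 43) to 4 lower. In +1vs-2 they ranged from 2 (without 2d prepartum replicate 34) to 10 (without 37) higher and from 0 (without 28, 34, 40 or 43) to 1 lower. Members passing the overall test ranged from 6 (without 10d prepartum replicate 16) to 16 (without 37). Of all 13503 genes, 1459 (without 7), 1449 (without 43) and 2034 (without 37) were higher in +1vs-14. In +1vs-2, 691 (without 34) and 1502 (without 37) of them were higher. The overall test was passed by 2831 (without 16) and 4562 (without 37). Over single called members, 204 of 263 values under an alternative kept the call, 59 lost it and 0 changed sign. CD83 and CD93 in +1vs-14 lost it only with the RNA integrity covariate.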
